A study of Ovis aries with 10 samples.

Results

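UBE3A encodes an E3 ubiquitin ligase, and its circular RNAs (circRNAs) in sheep libraries with a back muscle tissue label are described here. CircRNAs are transcripts closed by a back-splice, a junction between the downstream end of one exon and the upstream end of the same or an earlier exon. The members are the circRNAs that the deposited table assigns to a host gene named exactly UBE3A and that have an entry in at least 1 of the 10 libraries. There are 6 of them among 8721 circRNAs listed in these libraries. A further 2 UBE3A circRNAs in the file are listed only under sample names from outside the series, and were left aside. UBE3A was chosen by its junction read numbers in these libraries, with their difference between the groups already known, so both are given here as descriptions and support nothing.

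The samples came from female small-tailed Han sheep, 5 after sham surgery (STH) and 5 after ovariectomy (OR-STH), which removes the ovaries, the main source of estrogen. The labels give no age, and no further treatment or genotype for either group. The tissue label is longissimus dorsi, a back muscle, but other labels name primary myoblasts, and a culture protocol lists an estradiol series that no sample is tied to. Of 12 genes fixed as markers of adult muscle fibers, 11 hosted a circRNA, with 1438 to 2098 summed junction reads in a sham and 1575 to 1729 in an ovariectomized library. Of 8 myoblast and satellite cell markers only DES and NCAM1 hosted one, with at most 3 reads in a library, and PAX7, MYF5, MYOD1 and MYOG were at 0. None of the 6 proliferation, 6 fibroblast, 5 Schwann cell and 5 neuron markers did, and 4 of 6 endothelial markers did, with 12 to 43 reads. Of 5 markers each, smooth muscle had MYH11, at 0 to 4 reads in sham libraries, immune cells MRC1, at 0 to 5, both at 0 in every ovariectomized library, and adipocytes LPL, at 0 to 6 over both groups. Their part in the UBE3A values was not tested. These counts describe circRNA hosts and do not measure cell content. Fewer cells of a type and less RNA per cell cannot be told apart in such bulk libraries. The labels do not say that each library is a different animal, so the p-values refer to the spread between these libraries, not between animals. Those from limma also draw on a variance pooled over other circRNAs or hosts.

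The UBE3A protein, also called E6AP, belongs to the HECT family of ligases, which take ubiquitin from an E2 enzyme onto a cysteine of their own before passing it to a substrate. It is known for marking proteins for the proteasome, for its loss in Angelman syndrome, where the maternal copy is the active one in neurons, and as a coactivator of steroid hormone receptors, the estrogen receptor among them. Exons of the gene can be spliced into linear messenger RNA or back-spliced into circRNAs, and circRNAs lack free ends and tend to be long-lived. Junction reads, the unit used below, are reads across the back-splice, and each count refers to 1 junction, so no length scaling was applied.

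All 6 UBE3A circRNAs are annotated as exonic and lie on the minus strand of chromosome 18, where the upper coordinate is the upstream (5′) end. Coordinates are those of the file, whose genome build is not given in the sources used here. The circRNA with the most reads, novel_circ_0013887, runs from 1674006 to 1679847 and has a listed spliced length of 2059 bases in 4 exon blocks. From upstream to downstream the blocks measure 1680, 120, 214 and 45 bases. The length is not a multiple of 3 (remainder 1).

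The upstream end at 1679847 was shared by 4 of the 6 circRNAs, which differ in how far downstream they reach. The shortest in span, novel_circ_0013892, starts at 1677314, the lower edge of the 120-base block. Next in span after novel_circ_0013887 comes novel_circ_0013885, which starts at 1660742, and the longest of the 4, novel_circ_0013881, starts at 1648167 and spans 31681 bp. No other member shared the downstream end of novel_circ_0013887. In novel_circ_0013881 the corresponding block extends 6 bases further down, to 1674000, and continues the circle past it. Its listed blocks leave out the 214-base block altogether and take 64, 128 and 85 bases from within the 1680-base block.

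The other members, novel_circ_0013878 and novel_circ_0013877, lie further downstream and overlap none of the listed exon blocks of novel_circ_0013887. Both start at 1627208, and their upstream ends, 1648471 and 1648275, are 196 bases apart. Both of these ends fall within a 305-base block that is the most downstream block of novel_circ_0013881. For 3 of the 6, novel_circ_0013885, novel_circ_0013892 and novel_circ_0013878, the listed blocks do not reach both ends of the circle. Their listed spliced lengths of 255, 64 and 230 bases therefore do not describe whole circles.

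**Figure D1:**
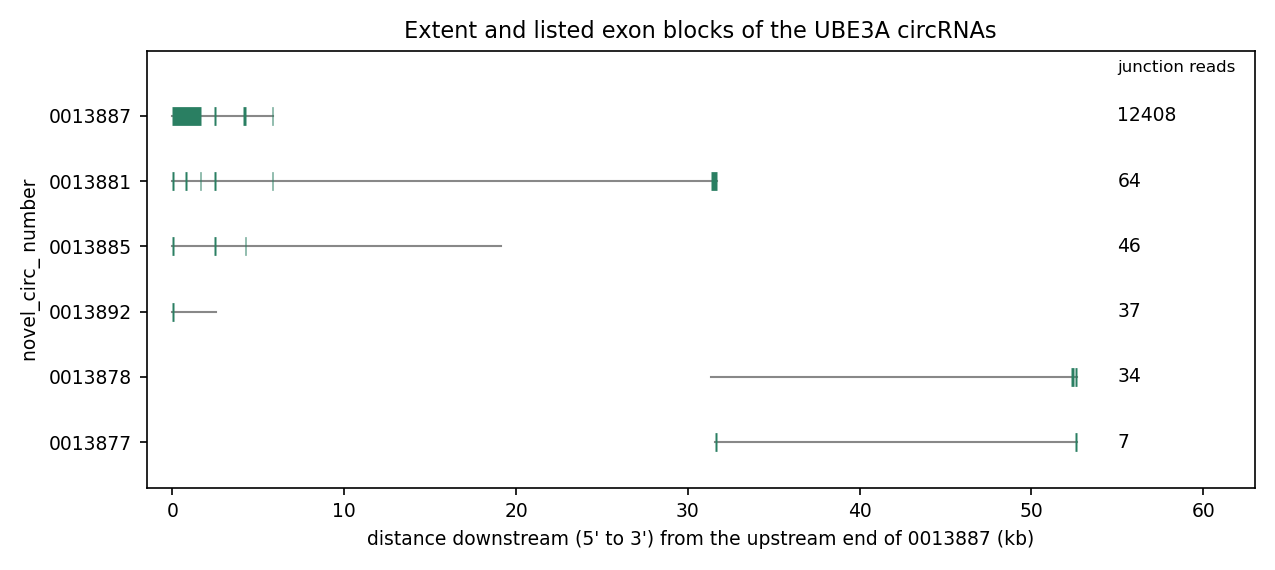
Each row is 1 UBE3A circRNA: the thin line is its extent and the green boxes are its listed exon blocks, plotted as distance in kb downstream of the upstream end of novel_circ_0013887, with its junction reads over the 10 libraries at the right. Of the 6 circRNAs, 4 begin at the same upstream end, and novel_circ_0013887 holds 12408 of the reads.

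UBE3A gave 12596 junction reads in all, 2.83% of those in the 10 libraries and rank 3 among 3436 hosts. One circRNA held nearly all of them: novel_circ_0013887 had 12408 reads, 98.5% of the UBE3A total, and the other 5 had 188. It was the most-read of the 806 circRNAs listed in every library, ahead of one with 8114 reads. In each library it ranked first or second, and in the libraries where it ranked second a SENP6 circRNA came first. Among the 303 hosts with 6 or more circRNAs, the median share of a host's reads in its leading circRNA was 47.0%. No host in that set had a larger share than UBE3A, and the next was FANCM, a DNA repair gene, with 95.3% of 446 reads. The hosts were not matched on read number, and the share draws on the junction reads by which UBE3A was chosen, so it is a description.

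In the sham libraries novel_circ_0013887 took 98.4%, 96.7%, 98.3%, 98.9% and 97.7% of UBE3A junction reads in replicates 1 to 5. The ovariectomized libraries had 98.9%, 98.0%, 98.7%, 99.5% and 98.6%. The 95% Wilson interval of a single share was at most 2.50 percentage points wide and covers counting error only. The groups overlapped, and the means of 98.0% ± 0.83 and 98.7% ± 0.522 (SD, n = 5 each) differed by 0.737 percentage points with an exact permutation p of 0.127, adjusted 0.254. Here and for the measures below, exact tests are two-sided over the 252 ways to split the libraries, with a smallest possible p of 0.00794. Adjusted values are Benjamini-Hochberg values over the 6 measures of the UBE3A circRNAs. The difference was 0.424 percentage points without sham replicate 2. No difference in the use of this circRNA over the others was thus shown between the groups.

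Sham replicates 1 to 5 held 964, 772, 806, 1001 and 1043 junction reads of novel_circ_0013887. Ovariectomized replicates 1 to 5 held 1369, 1186, 1149, 1989 and 2129. All ovariectomized counts lie above all sham counts before scaling, which was so for 1.49% of 738 tested circRNAs, and the ovariectomized replicate 5 library is the deepest of the 10. As a percentage of all junction reads of the library it was 1.62% to 2.61% in sham and 2.92% to 4.23% in ovariectomized libraries, a separation seen for 1.22% of tested circRNAs. That percentage moves with the SENP6 circRNA, which is listed only for replicates 1, 3 and 5 of either group, at 4592 to 12107 reads in sham and 1659 to 2001 after ovariectomy. With those reads left out of the totals the groups met: sham replicate 1 was at 3.13%, above ovariectomized replicates 2 and 3 at 2.92% and 3.08%, and the other 4 sham libraries were at 2.13% to 2.51%.

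Scaled by trimmed mean of M values, the normalized junction reads of novel_circ_0013887 were 1255, 929, 869, 985 and 1053 in sham replicates 1 to 5. In ovariectomized replicates 1 to 5 they were 1415, 1207, 1213, 1724 and 1319. Only sham replicate 1 reached into the ovariectomized range, above replicates 2 and 3, so the groups were not fully apart as they were for 0.542% of the tested circRNAs. The ratio of the group means was 1.35. This circRNA was among the steadier ones within groups: its coefficient of variation was 15.3%, against a median of 42.4% over the 738 tested, and 8 had a lower one. Counting alone would give 2.84% at its mean read number, and more for circRNAs with fewer reads. The comparison was not matched on read number.

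The difference did not pass the threshold in the fit over all circRNAs, limma voom with adjusted p under 0.05. That fit called 0% of 738 circRNAs, and 42 of them had an unadjusted p under 0.05, with 1.22% of the 738 both under that limit and higher after ovariectomy. For novel_circ_0013887 limma estimated a log2 difference of 0.44 ± 0.14 (SE), at an unadjusted p of 0.00675 and an adjusted p of 0.781. It was the only one of the 6 members tested there, as the other 5 had too few reads. When the filter was instead 5 or more libraries with at least 2 reads, limma called 0.149% of 2690, novel_circ_0013887 among them, with 0.48 ± 0.08 and an adjusted p of 1.23e-05. With no filter beyond 1 read, which called 0.344% of 8721, its adjusted p was 0.256. Its degrees of freedom were 15.4 in the first fit, 4358 with the filter of 2 reads and 8 with no filter. The 10 libraries alone give 8, so the p-value with the filter of 2 reads rests almost wholly on a variance pooled over other circRNAs. In the authors' deposited table its log2 fold change, written there as sham over ovariectomized, is -0.46 with an adjusted p of 0.966.

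Summed over all 6 circRNAs, the UBE3A circRNAs averaged 1033 ± 174.5 normalized junction reads over the sham and 1405 ± 211.8 over the ovariectomized group (SD, n = 5 each). The host sum follows novel_circ_0013887, at a log2 difference of 0.45 ± 0.15 (SE) and a limma adjusted p of 0.697 among 753 hosts. That fit called 0% of hosts. Under that second filter limma called 0.112% of 1790 hosts, UBE3A among them, with an adjusted p of 0.0126. That p-value too rests mainly on a pooled variance, at 552 degrees of freedom against 21.8 in the first host fit.

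**Figure D2:**
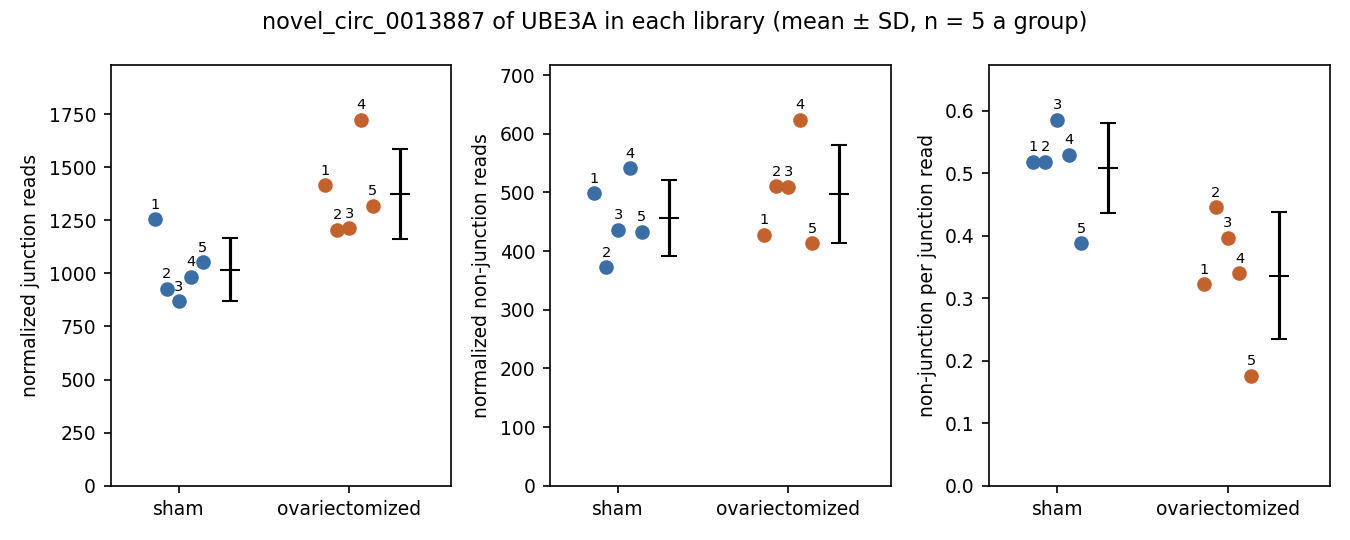
For novel_circ_0013887, the panels plot normalized junction reads, normalized non-junction reads and the number of non-junction reads per junction read in each library, with replicate numbers beside the points and mean ± SD (n = 5) as black bars. Junction reads average 1018 in sham and 1376 in ovariectomized libraries, while the non-junction reads overlap in part, with ovariectomized replicate 4 above every sham library and sham replicate 2 below every ovariectomized one.

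The table also gives a non-junction read count for each listed circRNA. No source used here defines it, and it was taken as reads at the ends of the circle that do not cross its junction. These reads were among the readouts named when UBE3A was chosen, so their comparison is no independent support. Sham replicates 1 to 5 gave 500, 400, 472, 530 and 405 such reads for novel_circ_0013887. The ovariectomized replicates 1 to 5 gave 441, 529, 456, 677 and 374. The groups overlap in part: ovariectomized replicate 4 is above and ovariectomized replicate 5 below every sham library, and the other ovariectomized libraries lie within the sham range. Scaled in the same way over the 605 tested circRNAs listed in every library, the sham group averaged 456.5 ± 65.3 and the ovariectomized group 497.0 ± 84.0 (SD, n = 5 each). Limma put the log2 difference at 0.12 ± 0.15 (SE) with an adjusted p of 0.794, in a fit that called 0.165% of the 605.

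In all 10 libraries novel_circ_0013887 had fewer non-junction than junction reads, which sets it apart from most circRNAs. Its number of non-junction reads per junction read was 0.519, 0.518, 0.586, 0.529 and 0.388 in sham replicates 1 to 5. In ovariectomized replicates 1 to 5 it was 0.322, 0.446, 0.397, 0.340 and 0.176. Its median over the libraries was 0.421, against a median of 6.57 over 604 tested circRNAs with a non-junction read in every library, and 11 of these had a lower value. The median circRNA of a library had 3.63 to 8.48 non-junction reads per junction read, above UBE3A in all 10. This was a comparison of circRNAs within libraries, with no test, and the ratio shares its junction reads with the abundance that singled out the gene.

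The log2 of this ratio averaged -0.99 ± 0.22 over the sham and -1.64 ± 0.52 over the ovariectomized group (SD, n = 5 each), a difference of -0.65. The exact permutation p was 0.0238 and the adjusted p 0.143, so the difference did not pass the threshold over the 6 measures. The ratio divides by the junction reads, whose group difference was known when UBE3A was chosen, so this comparison is no independent support. Sham replicate 5 lies within the ovariectomized range, and the lowest value is that of ovariectomized replicate 5, without which the difference was -0.43. The same direction was common. Of the 604 circRNAs, 74.2% had a lower mean log ratio after ovariectomy, with a median difference of -0.31, and 24.7% had one at or below that of novel_circ_0013887. An exact permutation p under 0.05 in the lower direction was reached by 8.44% of them. Relative to the median circRNA of each library, a comparison chosen after seeing the data, the UBE3A difference was -0.31 with an exact permutation p of 0.0952.

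**Figure D3:**
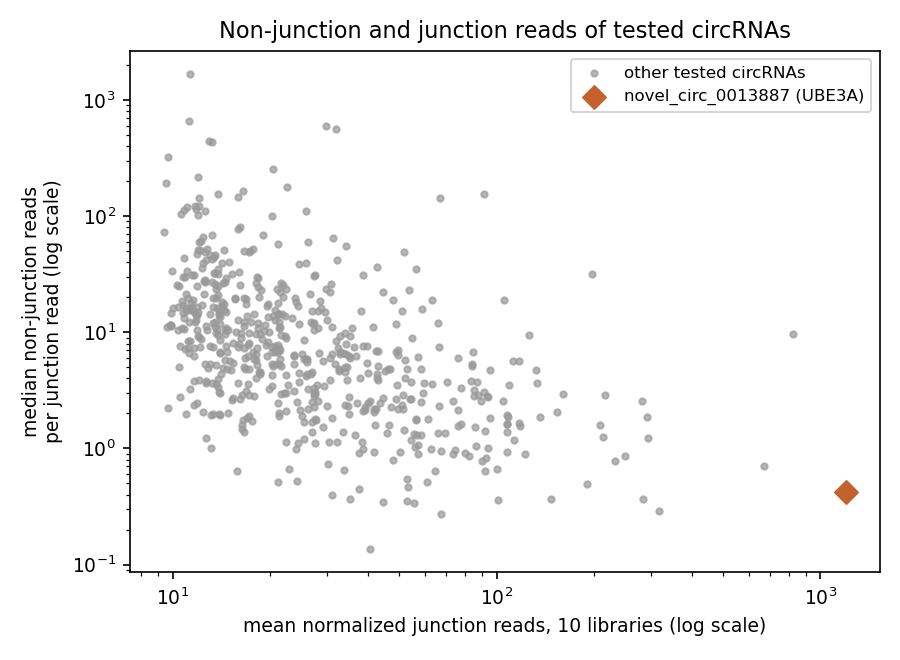
Each point is 1 of 604 tested circRNAs: the horizontal axis is its mean normalized junction reads over the 10 libraries and the vertical axis its median number of non-junction reads per junction read, both on log scales. The UBE3A circRNA novel_circ_0013887 (diamond) lies at the far right with a median of 0.421, where the median circRNA has 6.57; junction reads enter both axes.

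The other 5 circRNAs of UBE3A had at most 12 junction reads in a library. Only novel_circ_0013881 was listed in all 10, where sham replicates 1 to 5 had 4, 8, 2, 2 and 12 reads and ovariectomized replicates 1 to 5 had 4, 7, 8, 5 and 12. Its groups overlap fully, at 6.21 ± 4.53 and 6.29 ± 1.94 normalized reads (SD, n = 5 each). Its log2 difference was 0.33 ± 0.85 (SE) in the limma fit under the second filter (at least 2 reads in 5 or more libraries), where the adjusted p was 0.959.

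Of the 3 circRNAs listed in 7 or 8 libraries, novel_circ_0013885 had no entry in sham replicate 1 and 10, 8, 3 and 9 reads in sham replicates 2 to 5. In the ovariectomized group it had 4, 6 and 6 in replicates 1, 2 and 5. The member with the shortest span, novel_circ_0013892, had 9, 2, 4 and 2 reads in sham replicates 1 to 4 only. After ovariectomy it had 5, 5, 4 and 6 in replicates 1, 2, 4 and 5. The downstream circle novel_circ_0013878 lacked an entry in sham replicate 3, with 3, 6, 4 and 4 reads in the rest of that group, and had 2, 6, 7 and 2 in ovariectomized replicates 1 to 4. No library lacks all of these 3.

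None of these 3 passed the threshold. In the same limma fit the log2 fold changes were -1.28 ± 1.10 for novel_circ_0013885, 0.15 ± 1.13 for novel_circ_0013892 and -0.48 ± 1.14 for novel_circ_0013878 (SE), and the adjusted p-values were 0.878, 0.972 and 0.957. With so few reads, a change in these circRNAs was not detectable at this depth unless large, as the standard errors show. Those errors rest on a variance pooled over other circRNAs, at 21520 degrees of freedom, as does that of novel_circ_0013881. The remaining one, novel_circ_0013877, had 7 reads in ovariectomized replicate 5 and no entry elsewhere. An entry has at least 2 reads in the table, so a library without one may still have held a single read.

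**Figure D4:**
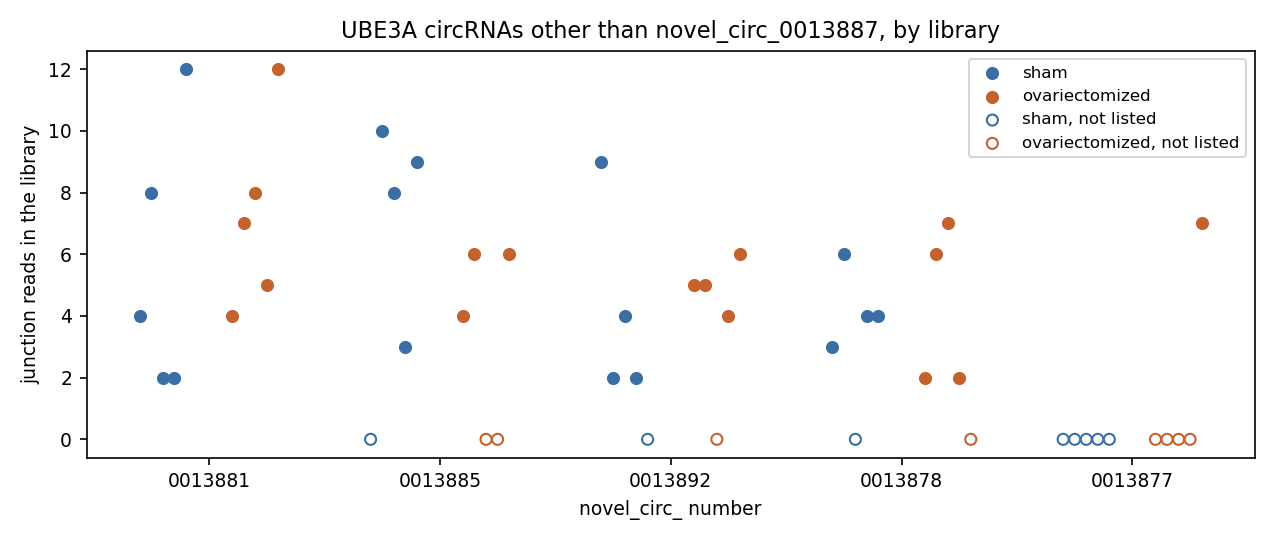
Junction reads in each library for the 5 UBE3A circRNAs other than novel_circ_0013887, with sham libraries in blue and ovariectomized libraries in orange; open circles at 0 mark libraries with no entry. No value exceeds 12 reads, and the groups overlap for every circRNA listed in more than 1 library.

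Together these 5 gave sham replicates 1 to 5 a sum of 16, 26, 14, 11 and 25 reads, and the ovariectomized replicates 15, 24, 15, 11 and 31. Of these reads, 81.2% ± 13.1 in sham and 74.8% ± 12.8 after ovariectomy (SD, n = 5 each) came from circRNAs that use the shared upstream end, an exact permutation p of 0.46, adjusted 0.69. None came from its downstream end, so that measure had no difference to test. A library listed 4.4 ± 0.548 UBE3A circRNAs in sham and 4.4 ± 0.894 in the ovariectomized group, an exact permutation p of 1.0. The mean listed spliced length per UBE3A junction read was 2025 ± 13.1 and 2038 ± 8.95 bases, an exact permutation p of 0.103, adjusted 0.254, and it follows the share of novel_circ_0013887. For 3 members the listed length does not describe the whole circle, so this measure does not give circle length. The difference of 12.9 bases was 7.78 without sham replicate 2 and 5.51 with entries of at least 5 reads only, and without sham replicate 4 it was 16.6, at an exact permutation p of 0.0317, adjusted 0.111.

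The circRNAs that share the upstream end differ in their non-junction reads in a set order. Where both were listed, novel_circ_0013892 had more than novel_circ_0013881 in 8 of 8 libraries, and novel_circ_0013881 had more than novel_circ_0013887 in 10 of 10. In turn novel_circ_0013885 had fewer than novel_circ_0013887 in 7 of 7. The ranges over libraries were 607 to 1374 for novel_circ_0013892, 461 to 696 for novel_circ_0013881, 374 to 677 for novel_circ_0013887 and 137 to 235 for novel_circ_0013885. These 4 have the upstream end in common, and so the counts may share reads. For the 3 with few junction reads the non-junction reads outnumbered them in every library, where novel_circ_0013887 had the reverse.

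Among the HECT family genes listed here, UBE3A was the host with the most circRNA reads. Of 27 other HECT and HECT-like ligase genes on a list, 20 hosted a circRNA, with 4977 junction reads between them, fewer than UBE3A alone. HERC4 had 2150 reads in 6 circRNAs. HACE1 had 11 circRNAs, the largest number among these genes, with 718 reads. The regulator HERC2, which binds UBE3A, had 250 in 6.

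**Figure D5:**
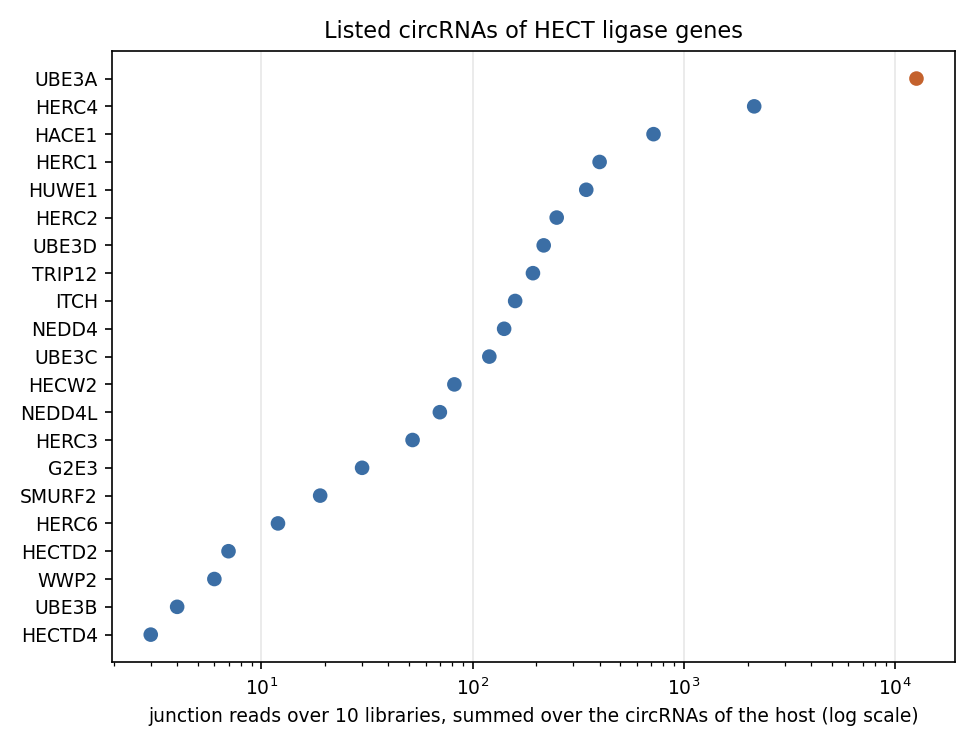
Junction reads over the 10 libraries, on a log scale, for UBE3A and the 20 other listed HECT family genes that hosted a circRNA, summed over the circRNAs of each gene. UBE3A (orange) is highest with 12596 reads, ahead of HERC4 with 2150.

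Of the 20 other HECT hosts, 10 had enough reads for the host fit, and 0 passed the limma threshold, where 0% of all 753 hosts did. At an unadjusted p under 0.05 there were 0 of the 10, and 45 of the 753. Estimates were higher after ovariectomy for 3 and lower for 7, with a median log2 fold change of -0.15, where over all 753 hosts 363 were higher and 390 lower, with a median of -0.02. The smallest p among the 10 were those of NEDD4, HERC2 and ITCH. NEDD4, a ligase for membrane proteins, was at -0.52 ± 0.42 (SE). HERC2 was at -0.47 ± 0.39. ITCH, a ligase known for its part in immune signalling, averaged 12.5 ± 5.21 normalized reads over the sham and 18.5 ± 6.04 over the ovariectomized group (SD, n = 5 each), at 0.52 ± 0.46. Their limma adjusted p-values were 0.813, 0.822 and 0.822.

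Among genes that act with UBE3A, 7 of 18 on a list of its E2 enzymes, binding partners and substrates hosted circRNAs, with 806 reads in all, and 2 were tested. UBE2D1, an E2 enzyme that can charge UBE3A, had 1 circRNA with 506 reads, averaging 61.9 ± 15.3 normalized reads over the sham and 42.3 ± 14.7 over the ovariectomized group (SD, n = 5 each). Its log2 difference was -0.67 ± 0.31 (SE), at an unadjusted limma p of 0.0393 and an adjusted p of 0.759. HERC2, given above, was the other. UBE2L3, the E2 best known to work with UBE3A, hosted none. Of 11 genes of the imprinted region around UBE3A and beside it, SNRPN and HERC2 hosted a circRNA. Of 12 ubiquitin ligase genes known from muscle, 5 did, with 228 reads together, among them TRIM63 and FBXO32, the ligases of muscle wasting, and only NEDD4 was tested.

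Among tested circRNAs with another named host, those that followed novel_circ_0013887 most closely in normalized reads came from SLC12A2, ATRN, ACVR2A, LRRFIP1 and LOC105605336. Pearson's r of log2 reads with a pseudocount of 1 was 0.864, 0.828, 0.81, 0.797 and 0.793 in that order, over 10 libraries that are shared by every circRNA. They are the highest values among the tested circRNAs with a named host other than UBE3A, and are given as a description. The correlation pools both groups, and each of the 5 had a positive log2 difference in the limma fit, from 0.90 to 1.35 with adjusted p from 0.208 to 0.846, as novel_circ_0013887 had. ACVR2A encodes a receptor of activins and myostatin, and SLC12A2 a sodium, potassium and chloride cotransporter. Apart from the LOC105605336 circRNA, with 714 reads, each had 121 to 178 reads in all.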

How the data were processed

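Per the labels' protocols the library kit kept strand, and the submitters' processing notes name HISAT2. Neither the caller nor the build and annotation is given in the sources used here. The deposited table packs whole-number junction and non-junction read counts into lists with the sample names, and gives the spliced length per circRNA, not per sample. The smallest listed count is 2, a library without an entry was entered as 0 junction reads, and 10 sample names of no sample in the series were not used. Per the file headers, the authors' second table gives each group's mean normalized read signal, the log2 fold change (sham relative to ovariectomized) and p-values. Those means of signal equal junction counts over median-of-ratios size factors to within 3.2e-07. The chromosome number came from the host gene's entry in the ARS-UI_Ramb_v3.0 gene table.

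Counts were fitted with limma voom (limma 3.58.1, R 4.3.3) with group as the only term, robust variances and Benjamini-Hochberg adjustment over all circRNAs or hosts tested, at a threshold of 0.05. Tested circRNAs had a total of 15 or more and, at the depth of the median library, 10 or more reads in 5 or more libraries, which left 738 with 68.0% of junction reads. Libraries held 35731 to 67061 junction reads. Normalized reads are reads divided by the library size, scaled by trimmed mean of M values (30% of log ratios and 5% of abundances trimmed), relative to the geometric mean. The non-junction fit used the 605 tested circRNAs listed in every library, since a library without an entry has no non-junction count. The fit functions were run on simulated counts with the same dispersion for every circRNA, and nothing here rests on the outcome. Replicates differed by more than sampling noise, with a chi-square per degree of freedom of at least 4.82 between any pair of a group. Members named with all values are those that passed the filter or had an entry in at least 8 libraries, and novel_circ_0013885 and novel_circ_0013877 as further members with the most reads. The 3 tested hosts of smallest p in each list are named, and 5 circRNAs of other hosts by likeness. The HECT hosts with the most reads, and genes named as hosting circRNAs or none, were picked from the lists after their counts were seen. The members and lists were chosen with earlier results of these data known. Alternatives covered scaling, filters, the variance model, a replicate block, the SENP6 circRNA and leaving out each library. A result for 1 listed gene is not reported here, and counts over its list leave it out.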

Additional observations from a re-analysis of the deposited data

How the results depend on the processing

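The log2 fold change of novel_circ_0013887 stayed positive under all 17 alternatives, from 0.37 to 0.60, and passed the threshold under 1 of them. With circRNAs of 2 or more reads in at least 5 libraries it was 0.48 (limma adjusted p = 1.23e-05), which made 1 UBE3A circRNA called in place of 0. In the same setting the UBE3A host sum was 0.49 (limma adjusted p = 0.0126). Both p-values rest mainly on a variance pooled over other circRNAs or hosts. Their degrees of freedom were 4358 and 552, against 15.4 and 21.8 with the filter of the main fits. The cause of the change was not tested. With library totals alone, which shifted the median of all 738 log2 fold changes from -0.04 to 0.14, novel_circ_0013887 was at 0.60. Leaving out each library gave 0.37 to 0.51, with limma adjusted p from 0.433 to 0.919, and 0.39 to 0.54 for the host sum. With a replicate block in the fit, limma gave novel_circ_0013887 an adjusted p of 0.206 and called 3 circRNAs in place of 0, none of them of UBE3A, and 1 host in place of 0, which was not UBE3A. The labels do not say what a replicate number stands for. Deviations of same-numbered libraries correlated at -0.11 to 0.18, and 1 of 5 sham libraries correlated best with its own number. Sham replicates 1 and 3 correlated best with ovariectomized replicate 5, sham replicate 5 with 3, and sham replicates 2 and 4 with 2. Best matches thus paired odd numbers with odd and even with even, the split also seen in the listing of the SENP6 circRNA. What this split stands for was not tested. The non-junction fold change of novel_circ_0013887 ranged from 0.00 to 0.16 over its 17 alternatives and never passed. The difference in the share of novel_circ_0013887 was 0.315 to 0.967 percentage points over 11 alternatives, with adjusted exact permutation p from 0.111 to 0.752. That in the log ratio of non-junction to junction reads was -0.77 to -0.43 with a library left out, with adjusted exact permutation p from 0.0952 to 0.333. The difference in the share of other reads at the upstream end moved by over 1.5 times, to between -10.7 and -0.936 percentage points with a library left out, and -12.6 with entries of at least 5 reads only. The counts of the 5 other UBE3A circRNAs, 188 reads in all, limit what can be said of them.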
